A study of Mus musculus with 2 samples.

Results

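The tumor suppressor axis around *Cdkn2a* and *Trp53* was followed, in 10 genes, through cerebellar tumors grown from mouse breast cancer organoids. They were taken by name: *Cdkn2a*, *Cdkn2b*, *Trp53*, *Mdm2*, *Cdkn1a*, *Rb1*, *Bax*, *Ccng1*, *Trp53inp1* and *Phlda3*. All 10 were among the 19465 genes of both count matrices, and all 10 passed the filter on low counts. The genes had been selected on their measured levels in tumor and neural spots, and those levels are therefore given as a description, without a test. For these 10 genes, tests were kept for comparisons within the tumor and within the neural tissue. The zone between them was compared after its levels had been seen. Other genes, on pathway lists chosen with earlier results known, were also tested between tumor and neural regions.

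The series held 2 sections, 5 µm thick, of formalin-fixed cerebellum measured with the Visium CytAssist assay, which counts probe-derived molecules (UMIs) at an array of spots. Each spot can cover several cells, which need not be of 1 type. Both sections carried the genotype label HP, which the study uses for the HER2 V777L and PIK3CA H1047R activating mutations, and neither label named a *Trp53* or *Cdkn2a* allele. Human HER2 was expressed from an actin promoter behind a Lox-STOP-Lox element, and Cre was given as adenovirus into the mammary gland of the donor mice. The resulting tumors were grown as organoids, labeled with luciferase and injected into the cerebellum of 5-month-old B6 mice, which received no treatment. The label of section 1 named the organoids HP-F1 and that of section 2 named them HP-B6, while both carried the same cell line entry, B6-HP. With 1 section per organoid name, the organoid, the mouse and the section cannot be told apart.

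*Cdkn2a* encodes both p16, an inhibitor of CDK4 and CDK6 that keeps RB active, and, from another first exon and reading frame, p19Arf, which binds MDM2. MDM2 is the ubiquitin ligase that degrades p53, so p19Arf stabilizes p53. p53 in turn activates *Cdkn1a*, *Mdm2*, *Bax*, *Ccng1*, *Trp53inp1* and *Phlda3*. Tumors commonly inactivate either the p53 arm or the RB arm of this axis. The counts are summed per gene, so p16 and p19Arf transcripts were not told apart here.

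*Cdkn2a* lies on chromosome 4 at 89274473 to 89294619 of GRCm38.p6 (the build that mm10 names), 11.7 kb from *Cdkn2b* at 89306289 to 89311032 and 93.4 kb from *Mtap*. *Trp53* lies on chromosome 11 at 69580348 to 69591873, and *Cdkn1a* on chromosome 17 at 29090979 to 29100722. RefSeq promoter windows, from 250 bases before to 50 after a start, were matched for 8 of the 10 genes, and *Rb1* and *Trp53inp1* were not matched. Shown first are the windows of the starts of *Cdkn2a*, the gene that differed most between the sections, since its products start at different promoters. The upstream window, chr4:89294570-89294869 on the minus strand, has 77% G and C and 45 CpG, against medians of 52.7% and 7 over 32851 windows. Capitals mark TTTCCCGC, a site of E2F, the factor that RB restrains.

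Cdkn2a upstream window: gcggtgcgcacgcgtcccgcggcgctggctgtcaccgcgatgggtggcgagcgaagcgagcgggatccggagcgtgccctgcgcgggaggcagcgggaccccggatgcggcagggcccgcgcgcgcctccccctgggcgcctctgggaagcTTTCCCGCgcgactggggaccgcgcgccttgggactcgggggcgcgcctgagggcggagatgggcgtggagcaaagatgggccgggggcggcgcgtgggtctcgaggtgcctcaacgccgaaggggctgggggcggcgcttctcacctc

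The downstream window, chr4:89282143-89282442 on the minus strand, has 60.3% G and C and 12 CpG.

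Cdkn2a downstream window: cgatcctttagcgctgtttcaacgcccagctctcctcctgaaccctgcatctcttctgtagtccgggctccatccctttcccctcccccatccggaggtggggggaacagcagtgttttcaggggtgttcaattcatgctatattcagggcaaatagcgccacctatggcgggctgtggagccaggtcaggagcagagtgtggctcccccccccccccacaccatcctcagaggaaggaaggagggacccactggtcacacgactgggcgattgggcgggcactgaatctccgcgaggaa

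The motif search, for TTTCCCGC or its complement GCGGGAAA, found it in 1 of the 10 windows of these genes and in 1.07% of all windows. *Cdkn1a* had windows at separate starts. The downstream one, chr17:29093519-29093818, with 64.7% G and C and 23 CpG, held neither the E2F nor the p53 motif and is not shown. The upstream window, chr17:29090729-29091028 on the plus strand, is shown because this gene is a p53 target with a peak near the tumor border. By distance, its share of UMIs was highest outside the border in both sections, as given below with the effect of scaling. Capitals mark a match to the sequence pattern of a p53 response element, with a spacer of up to 13 bases allowed between its half-sites. The pattern was found in 1 of the 10 windows and in 0.0731% of all windows. The lower-case bases right after the marked stretch miss a half-site of the pattern at their first base only, so they were not marked. Which of these bases p53 binds was not tested.

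Cdkn1a window: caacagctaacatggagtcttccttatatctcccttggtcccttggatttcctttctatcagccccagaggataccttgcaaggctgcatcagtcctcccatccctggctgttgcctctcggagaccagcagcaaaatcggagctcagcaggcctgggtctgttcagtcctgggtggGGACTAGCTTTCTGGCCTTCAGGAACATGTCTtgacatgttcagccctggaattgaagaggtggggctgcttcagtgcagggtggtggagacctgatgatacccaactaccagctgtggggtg

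Spots were sorted into tumor, mixed and neural by the ratio of tumor markers (epithelial and matrix genes) to neural markers, smoothed over neighbors. Section 1 gave 780 tumor, 315 mixed and 2220 neural spots, and section 2 gave 692, 666 and 2641. Tumor spots were deeper, with medians of 54074 and 42038 UMIs in sections 1 and 2, than neural spots, with 7469 and 9581. The tumor spots of section 2 held epithelial markers at a summed 12678 counts per 1000000 UMIs (CPM), against 179 in its neural spots. Those of section 1 held them at 51.5 CPM against 35.9, with none of the 12 markers at 0, and held matrix markers at 69129 CPM. In section 1 the name tumor thus rests on matrix genes, not on epithelial genes. Proliferation markers were at 643 and 572 CPM in tumor spots and at 64.9 and 72.1 in neural spots. The sections shared 3096 spot barcodes, which name array positions and not cells.

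*Cdkn2a* was the most divergent of the 10 genes. In section 2 its level, scaled with TMM factors, was 750 CPM in tumor spots, 289 in mixed spots and 12.3 in neural spots, from 17816, 3923 and 374 UMIs. In section 1 it was 5.45 CPM in tumor spots, 19.0 in mixed spots and 5.73 in neural spots, from 198, 107 and 120 UMIs. Tumor spots thus held 61.1 times the neural level in section 2 and 0.951 times in section 1, where the counting intervals of the levels overlap (4.71 to 6.26 in tumor spots and 4.75 to 6.85 in neural spots, 95%, Poisson). A lower level in a spot can mean fewer cells of a type or less RNA per cell, which cannot be told apart. A log2 fold change within 1 unit of 0 in section 1 together with one above 5 in section 2 was found for 57 genes, 0.296% of 19228, and *Cdkn2a* was the only one of the 10 genes among them. Between the tumors themselves the ratio of section 2 to section 1 was 138, which placed *Cdkn2a* 28th of 19228 genes, while the same ratio for neural spots was 2.14. The genes were chosen with their levels known, so this share and rank, and those of *Trp53* below, are description and not evidence of rarity.

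*Cdkn2b*, which encodes the CDK4 and CDK6 inhibitor p15, was higher in tumor than in neural spots of both sections. Its levels in tumor, mixed and neural spots were 33.8, 9.74 and 4.87 CPM in section 1 and 290, 98.1 and 6.83 CPM in section 2. The tumor level was 6.95 times the neural level in section 1 and 42.5 times in section 2. Its neighbor *Cdkn2a* shared the order tumor, mixed, neural in section 2 but not in section 1. *Mtap*, the methylthioadenosine phosphorylase gene on the other side of *Cdkn2a*, was at 207 and 244 CPM in the tumor spots of sections 1 and 2 and at 21.3 and 21.2 in neural spots.

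*Trp53* had the opposite contrast between the sections. In section 1 it was at 121 CPM in tumor spots, 59.5 in mixed spots and 27.1 in neural spots, from 4392, 336 and 568 UMIs. In section 2 it was at 16.3 CPM in tumor spots, 40.0 in mixed spots and 24.6 in neural spots, from 388, 544 and 749 UMIs. The counting intervals of the neural spots overlapped between the sections, and the tumor spots of section 2 were the lowest of all. The log2 fold change of tumor over neural was 2.14 in section 1 and -0.58 in section 2, and with library sizes in place of TMM factors 1.81 and -0.93. *Trp53* in tumor spots was 7.40 times higher in section 1 than in section 2, and 1.86% of genes had a lower ratio of section 2 to section 1. A log2 fold change above 1 in section 1 with one below -1 in section 2 was found for 0.447% of genes and the opposite pattern for 0.562%, and none of the 10 genes met either. The counts measure RNA and hold no information on the alleles of *Trp53*.

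**Figure D1:**
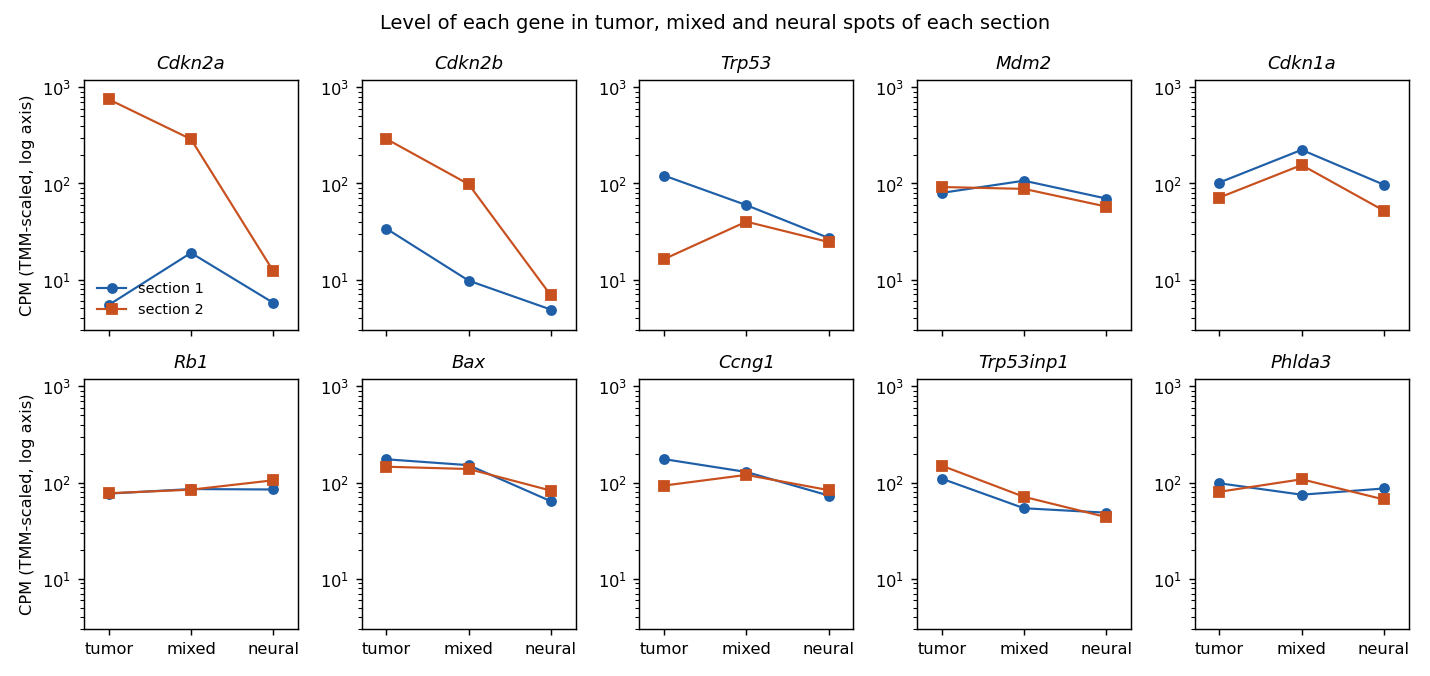
Level of each gene (CPM scaled with TMM factors, log axis) in the tumor, mixed and neural spots of section 1 (circles) and section 2 (squares). Each point is the sum over all spots of a region in 1 section, so there is no error bar between replicates. *Cdkn2a* lies at 750 CPM in the tumor of section 2 and at 5.45 in that of section 1, and *Trp53* at 16.3 and 121.

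Of the genes that p53 acts through, *Bax* and *Trp53inp1* were higher in tumor than in neural spots of both sections. *Bax*, which permeabilizes mitochondria in apoptosis, was at 175 and 146 CPM in tumor spots and at 63.9 and 82.5 in neural spots of sections 1 and 2. *Trp53inp1*, a stress-induced p53 partner, was at 110 and 150 CPM in tumor spots and at 48.6 and 43.7 in neural spots. With *Cdkn2b*, these were the 3 of the 10 genes with a log2 fold change above 0.5 in both sections, a share to be read beside 18.9% of all genes. None of the 10 was below -0.5 in both, as 20% of all genes were.

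The other effectors differed little between tumor and neural spots, or in 1 section only. *Ccng1*, cyclin G1, was at 175 CPM in tumor and 73.3 in neural spots of section 1, and at 93.0 and 83.5 in section 2. *Phlda3*, which restrains AKT signaling, was at 98.2 and 86.8 CPM in section 1 and at 80.2 and 66.7 in section 2. *Mdm2* was at 79.8 CPM in tumor and 69.7 in neural spots of section 1, and at 91.8 and 57.5 in section 2. The TMM-scaled *Mdm2* level in tumor spots of section 2, where *Trp53* was lowest, was 1.15 times that in section 1. Part of this ratio comes from the TMM factors of the tumor spots, 0.898 in section 1 and 0.814 in section 2, and it is smaller by library size. *Cdkn1a*, which encodes the CDK inhibitor p21, was at 102 and 97.0 CPM in section 1 and at 71.4 and 52.1 in section 2. *Rb1* was at 76.7 CPM in tumor and 84.7 in neural spots of section 1, and at 77.4 and 106 in section 2.

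Some of these small contrasts turn with the scaling. Over all 19032 genes tested, in the fit of 5 regions per section, the median log2 fold change was 0.25 with TMM factors and -0.09 with library sizes. The values below are instead folds within 1 section. For these the medians over 19228 genes were -0.17 and -0.05 in sections 1 and 2 with TMM factors. With library sizes the sign turned for *Mdm2* in section 1 (0.19 to -0.13), *Cdkn1a* in section 1 (0.08 to -0.25), *Ccng1* in section 2 (0.16 to -0.20) and *Phlda3* in both sections (0.18 to -0.14 and 0.26 to -0.10). Those of *Cdkn2b*, *Bax*, *Trp53inp1*, *Trp53* and *Rb1* kept their sign in each section, as did that of *Cdkn2a*.

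**Figure D2:**
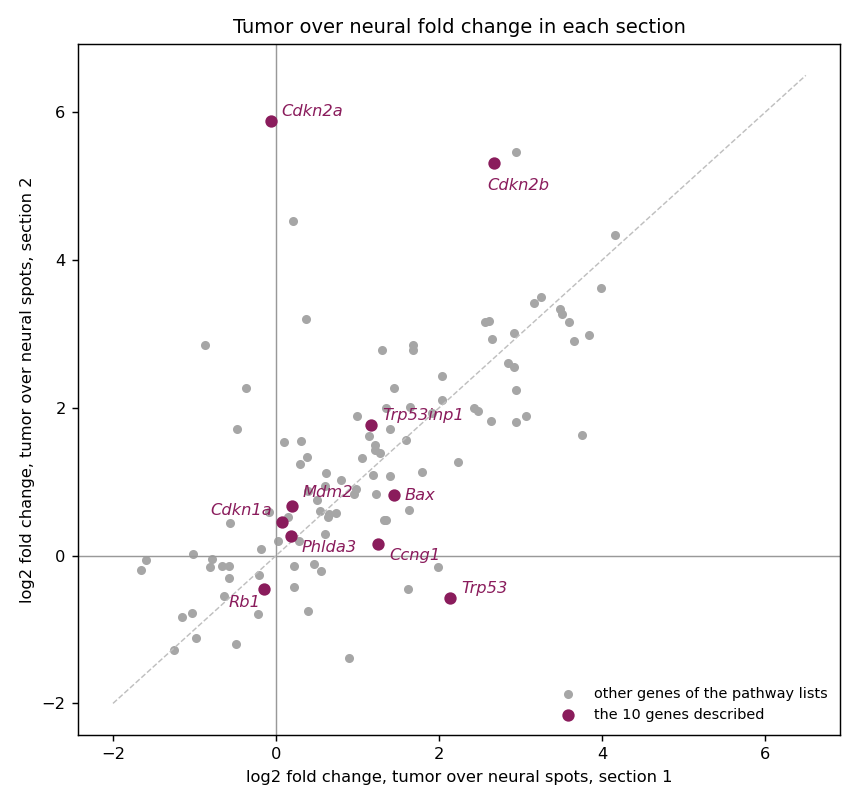
Log2 fold change of tumor over neural spots in section 1 (horizontal) against section 2 (vertical), from TMM-scaled CPM with 0.5 added, for the 10 genes (labeled) and the other genes of the pathway lists (gray). The dashed line marks equal values. *Cdkn2a* lies at -0.07 and 5.88 and *Trp53* at 2.14 and -0.58, both far from the line.

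The share of spots with a UMI was compared after each spot was thinned to 5000 UMIs, which left out shallower spots. A UMI of *Cdkn2a* was found in 95.2% of 689 tumor spots of section 2 (exact 95% interval 93.3% to 96.7%) and in 6.44% of 2312 neural spots. In section 1 the shares were 2.59% of 771 tumor spots and 2.74% of 1604 neural spots, no higher in tumor than in brain. *Trp53* was found in 39.4% of tumor spots of section 1 (36.0% to 43.0%) and 5.95% of those of section 2 (4.30% to 7.99%), and in 13.8% and 12.6% of neural spots. Unthinned, the *Trp53* shares of tumor spots were 96.4% and 40.3%, and of neural spots 21.5% and 23.3%, so at full depth the order of tumor and neural spots in section 2 was the reverse of that at equal depth. The intervals cover counting error only.

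**Figure D3:**
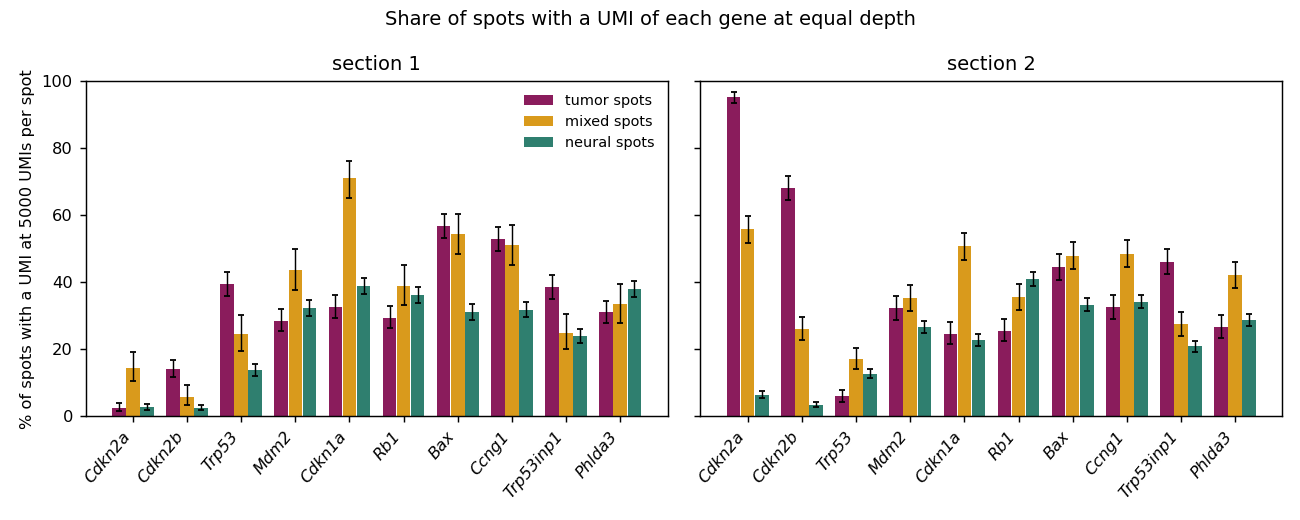
Percent of tumor, mixed and neural spots with at least 1 UMI of each gene after thinning to 5000 UMIs per spot, in sections 1 (left) and 2 (right). Error bars are exact binomial 95% intervals over spots of 1 section, not between replicates. *Cdkn2a* reached 95.2% of tumor spots in section 2 and 2.59% in section 1, and *Cdkn1a* was found most often in mixed spots of both sections, in 71.0% and 50.7%.

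Within the tumor of section 2, *Cdkn2a* varied little and *Trp53* varied more. When its tumor spots were ranked by epithelial markers and split into 3 equal bins, *Cdkn2a* was at 580, 620 and 628 CPM of the library size from the lowest to the highest bin. *Trp53* went the other way, at 18.7, 12.9 and 9.2 CPM. Ranked by macrophage markers, *Trp53* was at 10.0, 11.7 and 18.4 CPM, while the summed macrophage markers rose from 838 to 2603 CPM. *Trp53* in this tumor was thus lowest in the bin with most epithelial transcripts and, in the separate ranking, in that with fewest macrophage transcripts. Both were below the 25.6 CPM of the neural spots far from the tumor. Ranked by matrix markers, *Trp53* showed no steady order, at 16.5, 10.5 and 13.1 CPM from the lowest to the highest bin. In section 1, *Trp53* was at 104, 112 and 109 CPM over the bins ranked by epithelial markers and at 107, 109 and 109 over those ranked by macrophage markers. Spots of 1 section are not replicates, so no test was made over bins, and the part of other cell types in these values was not tested.

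Distance from the tumor border, binned from 8 array steps inside to 12 outside, showed where the levels turned. In section 2 *Cdkn2a* was at 582 CPM 8 array steps inside the tumor and at 620 in the outermost tumor spots. Outside it was at 478 CPM 1 step away, 153 at 4 steps, 45.2 at 8 steps and 20.9 at 12 steps. Epithelial markers fell over the same steps, from 8601 CPM at 1 step to 407 at 12. In section 1 *Cdkn2a* was at 3.96 CPM 8 steps inside, 13.2 in the outermost tumor spots and 34.8 at 2 steps outside. Macrophage markers were also highest at that step, at 9775 CPM, and epithelial markers stood at 56.7 CPM there. *Trp53* in section 2 rose from 9.47 CPM at 8 steps inside to 47.7 at 2 steps outside, and in section 1 fell from 117 to 67.6 over the same steps.

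*Cdkn1a*, in CPM of the library size, peaked outside the border in both sections. In section 1 it rose from 89.8 CPM at 8 steps inside to 306 at 1 step outside and was back at 79.8 CPM by 7 steps. In section 2 it rose from 32.6 CPM to 173 at 3 steps outside and came down to 37.1 by 12 steps. *Mdm2* showed a smaller peak in section 1, from 55.4 CPM at 8 steps inside to 145 at 1 step outside, and in section 2 went from 65.7 to 96.0 at 3 steps. On the TMM scale of the 5 regions per section, the 2 outermost tumor steps of section 1 held *Cdkn1a* at 241 CPM and *Mdm2* at 119. Its mixed spots held them at 218 and 104, with overlapping counting intervals. By library size the values were 224 and 110 against 260 and 124. The order of tumor edge and mixed spots in section 1 thus turned with the scaling for both genes. In section 2 mixed spots were above the tumor edge on the TMM scale, at 167 against 83.1 for *Cdkn1a* and 94.4 against 88.4 for *Mdm2*. *Phlda3* in section 2 went from 49.1 CPM at 8 steps inside to 117 at 3 steps outside and 52.1 at 12 steps, while in section 1 it was highest in the outermost tumor spots, at 123 CPM. *Bax* was highest at 4 steps outside in section 2, at 167 CPM, and in the outermost tumor spots in section 1, at 215 CPM. *Ccng1* was highest at 6 steps outside in section 2, at 149 CPM. In section 1 it was highest at 8 steps inside, at 176 CPM, which was the deepest step binned, and deeper tumor spots were not. Macrophage markers peaked at 2 steps outside in section 1 (9775 CPM) and at 5 steps in section 2 (7238 CPM), and their part in these peaks was not tested.

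**Figure D4:**
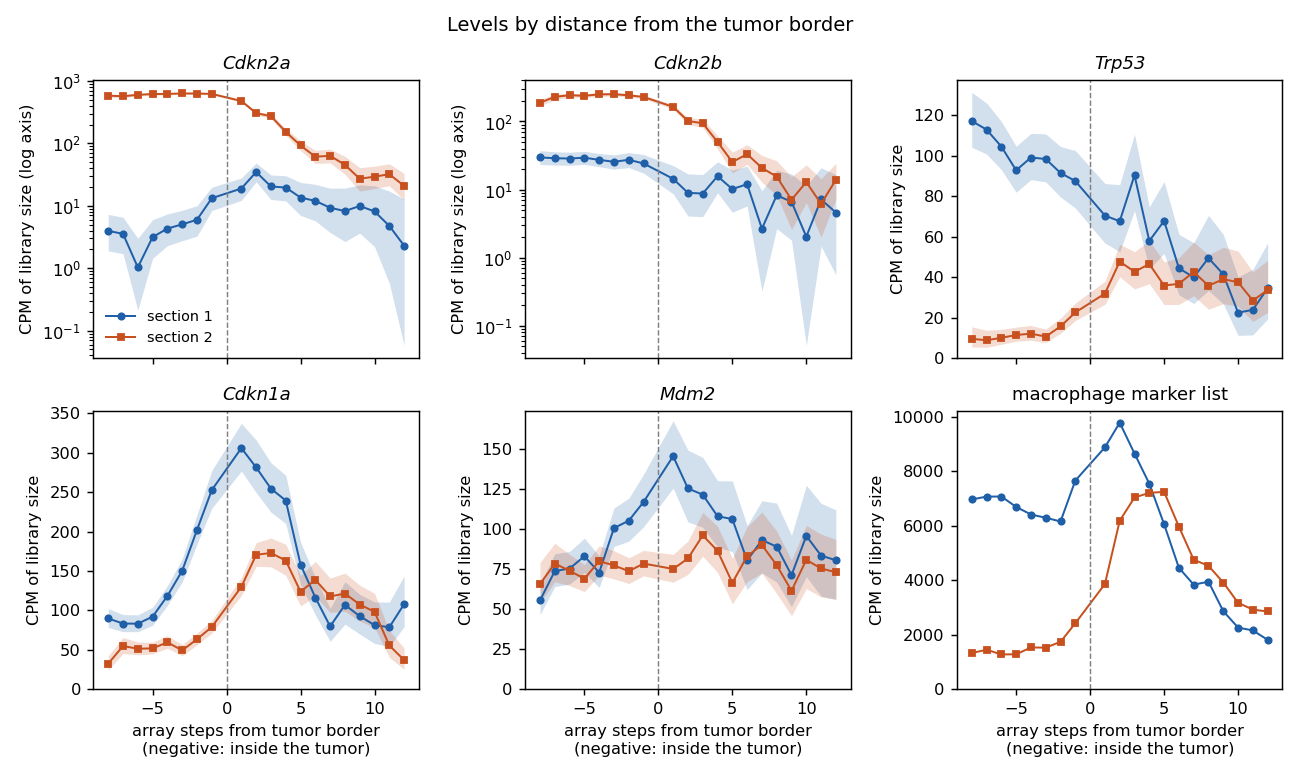
CPM of the library size by array steps from the tumor border (negative inside the tumor, dashed line at the border) in section 1 (circles) and section 2 (squares), for bins of at least 20 spots. Only steps from 8 inside to 12 outside were binned. Shading gives 95% Poisson intervals of the summed counts, which cover counting error only, and the lower right panel gives the summed macrophage markers. *Cdkn1a* was highest at 1 step outside in section 1 (306 CPM) and at 3 steps outside in section 2 (173 CPM).

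Whether levels differed within the tumor was tested between its rim, the 2 outermost steps, and its interior, with the section as a block. With edgeR's quasi-likelihood test 0 of the 10 genes, and 0 of 19032 genes (0%), passed an adjusted p of 0.05. The unadjusted p was under 0.05 for 517 genes, and DESeq2 called 28. *Cdkn1a* came nearest of the 10: its library-size level was 77.1 CPM in the interior and 224 in the rim of section 1, and 51.7 and 71.6 in section 2. Rim was above interior in both sections, by a log2 fold change of 1.49 and 0.42, and the fitted value was 1.01 (SE 0.32, edgeR adjusted p = 1). Neural markers, by library size, were also higher in the rim. Oligodendrocyte markers went from 298 to 1833 CPM in section 1 and from 200.4 to 544 in section 2. Neuron markers went from 109 to 387 and from 39.3 to 124, and astrocyte markers from 1302 to 1900.4 and from 376 to 1220. Macrophage markers rose from 1393 to 2094 in section 2 but were nearly level in section 1, at 6714 and 6791. The part of these markers in the *Cdkn1a* values was not tested. *Trp53* was at 111 CPM in the interior and 89.8 in the rim of section 1, and at 10.5 and 19.2 in section 2. The sections moved in opposite directions, and the fitted value was -0.01 (SE 0.70, edgeR adjusted p = 1). *Cdkn2a* was at 4.42 and 9.07 CPM in section 1 and at 604 and 625 in section 2, with a fitted value of 0.23 (SE 1.16, edgeR adjusted p = 1). On the TMM scale its section 1 counting intervals did not overlap, at 4.16 to 5.70 in the interior and 6.88 to 13.5 in the rim. The fit holds 1 section difference for all regions, and that difference was uneven for *Cdkn2a* and *Trp53*, which widens their SEs. For these 2 genes the rim test therefore cannot show that levels were equal. The other 7 genes had fitted values from -0.43 for *Trp53inp1* to 0.50 for *Phlda3*.

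The same question was asked of neural spots within 4 steps of the tumor against those farther off. The near zone held only 9 and 15 spots, with 99493 and 330855 UMIs, because mixed spots lay between. edgeR called 0 of the 10 genes and 0 of 19032 genes (0%), with 1715 genes at an unadjusted p under 0.05, and DESeq2 called 170. *Cdkn1a* was at 211 CPM of the library size near the tumor and 108 far from it in section 1, from 21 and 2010 UMIs, and at 148 and 53.4 in section 2, from 49 and 1538. Near was above far in both sections, and the fitted log2 fold change was 1.13 (SE 0.34, edgeR adjusted p = 0.466). Macrophage markers moved the same way, from 1261 to 7639 CPM in section 1 and from 1583 to 2772 in section 2, and their part in the *Cdkn1a* values was not tested. *Bax* was at 141 and 71.4 CPM near and far in section 1 and at 142 and 85.6 in section 2, with a fitted value of 0.75 (SE 0.31, edgeR adjusted p = 0.547). *Cdkn2a* rested on 1 and 8 UMIs in the near zone, and its fitted value of -1.51 (SE 2.05, edgeR adjusted p = 0.824) was opposite in sign to the values within each section, 0.56 and 0.76. The fit holds 1 section difference for all regions, whereas the *Cdkn2a* ratio of section 2 to section 1 was 138 in tumor and 2.14 in neural spots. That fitted value is therefore not read as a difference between near and far spots. When the near zone was counted from mixed spots too, a choice made after the data were seen, it held 456 and 405 spots and the *Cdkn1a* value was 0.15 (SE 0.35, edgeR adjusted p = 0.870), within a range of adjusted p from 0.0592 to 0.870 over the alternatives run.

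Mixed spots were compared with the mean of tumor and neural regions after the levels had been seen, so this contrast is a description of where *Cdkn1a* stood out rather than an independent test. On the TMM scale *Cdkn1a* was at 224 CPM in mixed spots of section 1 and 155 in those of section 2, above both tumor and neural spots of each section. The fitted log2 difference was 0.88 (SE 0.24, edgeR adjusted p = 0.840), and the adjusted p was at least 0.207 under every alternative run. edgeR called 0 of the 10 and 0 of 19032 genes (0%), with 1012 at an unadjusted p under 0.05, and DESeq2 called 72. The mixed spots of section 2 farther than 4 steps from the tumor held choroid plexus markers at 38023 CPM. *Cdkn1a* was at 157 CPM of the library size in those spots and at 155 in the mixed spots nearer the tumor. In section 1 it was at 157 and 274 CPM.

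Across the 10 libraries of 5 regions per section, the genes most like *Cdkn2a* were *Pappa*, *Cldn7*, *Kcnq1*, *Epcam* and *Aldh1a3*, with Pearson r from 0.981 to 0.984 among 11617 genes. *Epcam* and *Cldn7*, an epithelial adhesion molecule and a tight junction claudin, were at 2348 and 1578 CPM on the TMM scale in the tumor of section 2 and at 7.04 and 2.04 in that of section 1. The genes most like *Trp53* were *Gstm2*, *Wipf1*, *Colec12*, *St3gal1* and *Rasa4*, with r from 0.977 to 0.989. *Colec12*, a scavenger receptor, was at 171 CPM in the tumor of section 1 and 10.4 in that of section 2, and *Gstm2*, a glutathione transferase, at 52.7 and 3.37. Regions of 1 section share a mouse and a slide, so these values describe the pattern and carry no p.

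The pathway around these genes was described with lists of other members. In the contrast of tumor with neural regions, edgeR called 5676 of 19032 genes, 29.8%, of which 16.6% of genes were higher and 13.2% lower in tumor. Each side was the plain mean of its regions (interior and rim, near and far). The near neural regions, of 9 and 15 spots, thus weighed as much as the far ones, of 2211 and 2626. None of the lists held a gene called lower. For each list here and below, the count called higher is to be read beside the 16.6% of all genes. Of 12 genes that control ARF and p53, 5 were higher in tumor. *Npm1*, the nucleolar partner of p19Arf, was at 432 and 630 CPM in tumor and at 169 and 157 in neural spots of sections 1 and 2 (edgeR adjusted p = 0.00369). *Chek2*, a DNA damage kinase, was at 30.4 and 58.1 against 9.17 and 8.01 CPM (edgeR adjusted p = 0.00777). *Atr*, another such kinase, was at 12.7 and 13.9 against 7.88 and 9.26 CPM.

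Of 23 other p53 targets 5 were called higher in tumor, a count to be read beside 16.6% of all genes. Their median fitted log2 fold change was 0.63 against 0.25 for all genes. Within sections 1 and 2 their medians were 0.89 and 0.91, against -0.17 and -0.05 for all genes. *Dram1*, which acts in autophagy, was at 95.8 and 56.0 CPM in tumor and 7.50 and 5.78 in neural spots (edgeR adjusted p = 0.000776). *Tnfrsf10b*, a death receptor, was at 20.0 and 40.6 against 5.87 and 5.22 CPM, and *Plk2*, a stress-induced kinase, at 67.4 and 145 against 33.8 and 39.0 CPM. In 7 of the 23 the direction differed between the sections, compared with 4409 of 19228 genes.

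Of 8 cyclins and kinases 5 were called higher in tumor, and *Ccne1*, *Ccne2* and *Ccnd3* were not. *Cdk6*, a target of p16, was at 140 and 207 CPM in tumor and at 7.40 and 9.75 in neural spots (edgeR adjusted p = 0.000493). *Cdk2* was at 42.9 and 44.0 against 5.54 and 6.80 CPM, and *Ccnd2*, cyclin D2, at 65.8 and 80.0 against 10.3 and 8.37 CPM. Of 12 RB relatives and E2F factors 5 were higher: *E2f2* was at 12.6 and 88.5 against 1.19 and 1.51 CPM, *Rbl1* at 49.7 and 33.6 against 6.02 and 9.22, and *E2f1* at 50.1 and 26.4 against 8.55 and 6.43. Of 14 measured E2F targets and cell cycle genes 13 were higher, among them *Mcm6*, a subunit of the replicative helicase, at 145 and 135 against 11.1 and 17.6 CPM, with *Ccna2* and *Birc5*. Of 4 other CDK inhibitors 1 was higher, *Cdkn2c*, which encodes p18, at 139 and 35.2 against 9.79 and 11.1 CPM (edgeR adjusted p = 0.0443). Proliferation markers differed between tumor and neural spots as given above. The 8 of them, 7 measured, are all members of the list of E2F targets and cell cycle genes, so its calls are not separate from those markers. The part of proliferation in the other calls was not tested.

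Among apoptosis genes 7 of 12 were higher, including *Bcl2l11*, which encodes the BH3-only protein BIM, at 85.1 and 133 against 14.0 and 14.5 CPM (edgeR adjusted p = 0.000534). *Bak1*, the relative of *Bax*, was at 189 and 114 against 30.0 and 31.6 CPM. Of 9 measured Polycomb and demethylase genes known to act at *Cdkn2a* 4 were higher. *Ezh2*, the methyltransferase of Polycomb complex PRC2, was at 89.1 and 112 CPM in tumor and 40.2 and 36.1 in neural spots (edgeR adjusted p = 0.00257), and *Rnf2* at 63.1 and 93.2 against 25.8 and 35.4 CPM. *Kdm6b*, a demethylase of the mark that PRC2 sets, was at 28.3 and 65.2 against 21.6 and 25.5 CPM. Of 3 neighbors of *Cdkn2a* 2 were higher, *Mtap* (edgeR adjusted p = 0.000474) and *Klhl9*, and *Dmrta1* was not. None of the genes on these lists was called between rim and interior or between near and far neural spots. As 0 of all 19032 genes (0%) were called in either contrast, this says nothing particular to the lists.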

How the data were processed

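Spots of 2 sections, with 63986887 and 71878333 UMIs, were analysed. The authors deposited unnormalized UMI counts for each spot and gene, made with Space Ranger 2.1.1 on mm10, per the submitters' processing notes. The clusters of the study were not used here. Spots under 500 UMIs or 10 genes were left out (91 and 18). The score of a spot, log2 of tumor marker UMIs (28 genes, 1 added) over neural marker UMIs (32 genes, 1 added), was averaged over the spot and up to 6 neighbors and split into 3 classes per section by multi-Otsu thresholds (scikit-image 0.26.0).

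Counts were summed into 5 regions per section, and 10 libraries were fitted with edgeR 4.0.16 in R 4.3.3 (filterByExpr, TMM, robust quasi-likelihood test, section as block, Benjamini-Hochberg adjustment over 19032 genes). SE is the log2 fold change over the square root of F. Regions were paired because those of 1 section share a mouse: their deviations had correlations of 0.061 to 0.886 within a section, and the block lowered the common dispersion from 0.205 to 0.109. Levels by tumor, mixed and neural spots used 6 libraries with TMM factors of 0.814 to 1.16, and 0.5 CPM was added for fold changes within a section. Likeness used log2(CPM + 1) and genes with a mean of at least 10 CPM.

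In simulated data for the tumor and neural contrast, 18% of 100 changes of 1 log2 unit and 90% of 100 changes of 2 units were recovered among 18856 genes, and 6.09% of calls were false. The simulation gave all genes the same dispersion and all regions the same section difference, so its rates need not hold for these data. The rim, near and mixed contrasts were not simulated. With 2 sections precision is set by their number, not by depth. The study calls the sections biological replicates from HP organoids. Whether the names HP-F1 and HP-B6 mark separate organoid lines is not given in the sources used here. The block takes out the average difference between the 2 sections. The p-values thus measure how unevenly region differences ran in these 2 sections, pooled over all regions of the fit. A large SE or p in a contrast therefore need not mean that the sections disagreed in that contrast. Between rim and interior *Cdkn2b* had log2 fold changes of -0.28 and -0.05 in sections 1 and 2, with an SE of 0.74.

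The genes and lists were chosen with earlier results of these data known. Named beside the 10 genes were the 3 genes per list with the largest fitted change among those called and of 1 direction in both sections, and the 5 genes most like *Cdkn2a* and *Trp53*. DESeq2 1.42.0, other scalings, filters and region definitions were run as alternatives. Genes whose probes could share reads with close relatives were not separated further, and 11 symbols are listed more than once.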

Additional observations from a re-analysis of the deposited data

Results flagged for a closer look

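The log2 fold change of tumor over neural spots had opposite signs in the sections for *Trp53*, at 2.14 in section 1 and -0.58 in section 2. *Cdkn2a* also had opposite signs, at -0.07 and 5.88, but its counting intervals in tumor and neural spots of section 1 overlapped. Opposite signs were found for 4409 of 19228 genes. The difference between the sections was not tested.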

How the results depend on the processing

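The 10 genes were not called within the tumor, within the neural tissue or for mixed spots under any alternative run. *Cdkn1a* came nearest, with 2 classes of spots, at 1.31 between rim and interior (edgeR adjusted p = 0.0546; 0.0546 to 1 over the alternatives) and 1.11 between near and far (edgeR adjusted p = 0.0592). Counts of all genes called moved by over 1.5 times in 6 cases: DESeq2 called 28 between rim and interior, 170 between near and far and 72 for mixed spots, a split into 2 classes of spots called 557 and 937 in the first and second of these, and a rim of 1 step called 1 gene for mixed spots. Between tumor and neural regions edgeR called 3166 genes higher and 2510 lower with TMM factors and 1870 higher and 3307 lower with library sizes. Without the replicate block, that is without pairing regions by section, the count between tumor and neural regions was 4114 and the other counts were 0.

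Signs of some fitted log2 values turned. Between rim and interior they became -0.61 for *Cdkn2a* with 2 classes, 0.012 for *Cdkn2b* with the neural marker share alone, and for *Trp53* 0.012 with RLE factors, 0.041 with library sizes, 0.0082 with DESeq2, 0.11 with the neural marker share, 0.17 without smoothing, 0.020 with joint cutoffs and 0.0036 at a minimum of 1000 UMIs. A rim of 1 step gave -0.00038 for *Rb1* and -0.16 for *Ccng1*, which was -0.031 without the filter. Between near and far spots *Cdkn2a* became 0.91 without the block, 1.92 with 2 classes, 0.54 with the neural marker share, 0.89 with joint cutoffs, 0.68 with a near zone of 6 steps and 0.93 with the zone counted from mixed spots. The last also gave -0.037 for *Mdm2* and -0.0021 for *Trp53inp1*. *Mdm2* was -0.051 without the filter and -0.060 without smoothing. Joint cutoffs gave -0.067 for *Trp53* and -0.029 for *Ccng1*, and the neural marker share -0.24 for *Rb1* and 0.12 for *Phlda3*. For mixed spots *Rb1* became 0.017 with library sizes, 0.085 with the neural marker share and 0.0030 without smoothing, and *Trp53inp1* 0.10 with the neural marker share. The causes were not tested.

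With 1 section left out there were no residual degrees of freedom, and counts were not computed. The tumor and neural values depend on the section. For *Cdkn2a* the ratio was 61.1 within section 2 and 0.951 within section 1, and the *Trp53* signs oppose. The fitted log2 values over both sections were 3.37 for *Cdkn2a* (SE 1.19) and 0.50 for *Trp53* (SE 0.58), and describe neither section. The near zone of 2 steps held no spots and was not run. The near and far values rest on 9 and 15 spots.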

Other observations

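Some p53 relatives and targets that the naming rule left out had tumor levels far apart between the sections, and they are given here after their values were seen. On the TMM scale *Trp63*, the p53 relative of basal epithelium, was at 3.22 CPM in the tumor of section 1 and 40.3 in that of section 2, and *Perp*, a desmosome protein and p53 and p63 target, at 2.23 and 34.6 CPM. *Gadd45a* was at 166 CPM in section 1 and 58.9 in section 2, *Fas* at 23.2 and 4.59, and *Eda2r* at 7.32 and 1.64. Other p53 targets were higher in the tumor of section 2, among them *Xpc* at 28.7 and 97.8 CPM and *Pmaip1* at 17.0 and 28.2. Neural spots held *Gadd45a* at 41.7 and 65.4 CPM and *Fas* at 12.3 and 12.7 CPM. None of these 7 genes passed the edgeR test of tumor against neural regions.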
